A study of Mus musculus with 2 samples.

Results

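Tcf1 binding was examined at the Gimap genes of the mouse, a family of GTPases of the immune system that lie next to one another on chromosome 6. The peaks described here were selected on position alone: they are the entries of the authors' Tcf1 peak list whose midpoint falls between positions 48580000 and 48740000 of chromosome 6 in the genome build mm9, a window of 160 kb. This window held 5 of the 2827 peaks in the list. It was chosen with the list known, so the number and crowding of its peaks are given as descriptions with no test. The window was taken as given to span the family: gene positions in mm9 were not used here, and no peak was assigned to a single gene.

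The list comes from chromatin immunoprecipitation and sequencing (ChIP-seq), in which DNA fragments crosslinked to a protein are recovered with an antibody. Both libraries were made from untouched splenic CD8 T cells of wild-type C57BL/6 mice, with no treatment named in the labels. In 1 library chromatin was precipitated with a custom antiserum raised in rabbit against Tcf1, and in the other with pre-immune rabbit serum from a different antibody project. The age and number of the mice, and whether animals were pooled, are not stated in the labels. With 1 library per serum there is no replicate error for any value. The list holds no reads, so depth cannot be stated, and signal from the control serum in the window was not analysed here. Purity of the cells was not checked, since a peak list holds no expression of marker genes.

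Gimap proteins carry a guanine nucleotide-binding domain of the AIG1 type and are made mainly in lymphocytes, where several of them sit on membranes inside the cell. The family is known for its part in keeping lymphocytes alive: mice or rats without functional Gimap5 lose peripheral T cells, and Gimap1 is needed by mature T and B cells. Gimap3 is a close relative of Gimap5, Gimap4 acts in the course of T cell death, Gimap6 has been tied to autophagy, and Gimap7 hydrolyses GTP when it dimerises. Gimap8 is the large member, with repeated GTPase domains. Tcf1, encoded by Tcf7, is a DNA-bending HMG-box factor that is abundant in naive and memory CD8 T cells and binds sites built on the letters CTTTG.

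The RefSeq gene table of a later build, GRCm38.p6, was used for names and order only. It lists 8 Gimap genes, in the order Gimap8, Gimap9, Gimap4, Gimap6, Gimap7, Gimap1, Gimap5 and Gimap3. No other protein-coding gene stands between the first and the last of them. The 2 further entries there are the pseudogene Gm44262 and the long non-coding RNA Gm46958, both between Gimap8 and Gimap9. The nearest protein-coding neighbours are Zfp775 on the Gimap8 side and Tmem176b on the Gimap3 side. Of the 8 genes, 6 are read from the plus strand, and Gimap6 and Gimap3 from the minus strand.

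All 8 genes matched the RefSeq table of promoters by symbol, with 9 promoters in all, since Gimap8 has 2 start sites. Each promoter covers 250 bases before and 50 after the annotated start in GRCm38.p6. The sequence under the mm9 peaks was not used here, so these promoters describe the genes and not the peaks. The letters CTTTGAA or CTTTGAT or CTTTGTA or CTTTGTT, a form of the TCF/LEF site, were found on either strand in promoters of 2 of the 8 genes, Gimap7 and Gimap3. Over all 27025 genes of the table the share was 18.9%, so 2 of 8 is near the background. The shorter core CTTTG, which every longer match contains, was present in 4 of the 8 genes (Gimap8, Gimap4, Gimap7 and Gimap3), against 57.4% of all genes. The stretches with these letters are shown because they are the places in the family's promoters that resemble a Tcf1 site. Each is written 5′ to 3′ on the strand of its gene, with the TCF/LEF letters in capitals and up to 10 bases on each side.
Gimap3, positions -130 to -124: atagagaataCTTTGTAcacaaacatc
Gimap7, positions 43 to 49: cagtcagattCTTTGAAg
Gimap8, core at -109 to -105 of its first start: ctgttaccatCTTTGtctgtagcag
Gimap8, core at -30 to -26 of its first start: agacctgtgcCTTTGtgttcacacc
Gimap4, core on the opposite strand at 27 to 31: cagagaaggtCAAAGgacccagatt
Positions count from 1 at the first transcribed base, and negative positions lie before it. The Gimap7 match lies after the start and ends 1 base before the end of the promoter as tabulated. The Gimap3 match lies before the start. In Gimap8 the core is followed by TC or TG and so misses the longer form. The second Gimap8 promoter overlaps the first and holds the same pair of core matches, at -236 to -232 and -157 to -153 of its own start. Promoters of Gimap9, Gimap6, Gimap1 and Gimap5 hold none of these letters, which says only that the letters are absent from these windows.

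Letters of other T cell factors were searched in the same promoters, with patterns picked after the promoters had been seen. RUNX factors, among them Runx3 of CD8 T cells, bind sites that contain TGTGGT or TGCGGT. Such letters stood in 4 of the 8 genes (Gimap9, Gimap4, Gimap7 and Gimap1), against 25.0% of all genes. In all 4 they lay on the strand opposite to the gene, so that 0 of 8 had them on the gene's own strand, against 13.7% of all genes. ETS factors, among them Ets1, bind sites around GGAA. The letters AGGAAG or CGGAAG stood in all 8 genes, against 49.8% of all genes, and in 7 of them on the gene's own strand, against 30.3%. This count depends on the pattern. With a T required after it (AGGAAGT or CGGAAGT) 4 of 8 genes had a match, against 17.0%, and with a C required before it (CAGGAAG or CCGGAAG) 3 of 8 did, against 23.1%. The promoters of Gimap3 and Gimap5 are shown because these close relatives differ in this respect: Gimap3 holds a TCF/LEF and an ETS match, and Gimap5 a single ETS match. Each is the 250 bases before the start, 5′ to 3′ on the strand of the gene (minus for Gimap3, plus for Gimap5), from RefSeq in GRCm38.p6. Capitals mark TCF/LEF and ETS letters.
Gimap3: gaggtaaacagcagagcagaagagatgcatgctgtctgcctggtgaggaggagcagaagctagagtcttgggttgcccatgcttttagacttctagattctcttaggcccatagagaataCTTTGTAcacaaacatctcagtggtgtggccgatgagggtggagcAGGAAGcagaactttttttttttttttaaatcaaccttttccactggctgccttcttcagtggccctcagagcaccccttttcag
Gimap5: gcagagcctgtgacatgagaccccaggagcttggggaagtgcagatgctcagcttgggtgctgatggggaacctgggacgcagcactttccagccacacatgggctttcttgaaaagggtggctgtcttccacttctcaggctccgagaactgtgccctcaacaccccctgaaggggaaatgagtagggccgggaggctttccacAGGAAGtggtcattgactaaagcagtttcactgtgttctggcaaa
In the Gimap3 promoter the ETS letters lie at -85 to -80, 38 bases beyond the end of the TCF/LEF letters. In that of Gimap5 they lie at -45 to -40.

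**Figure D1:**
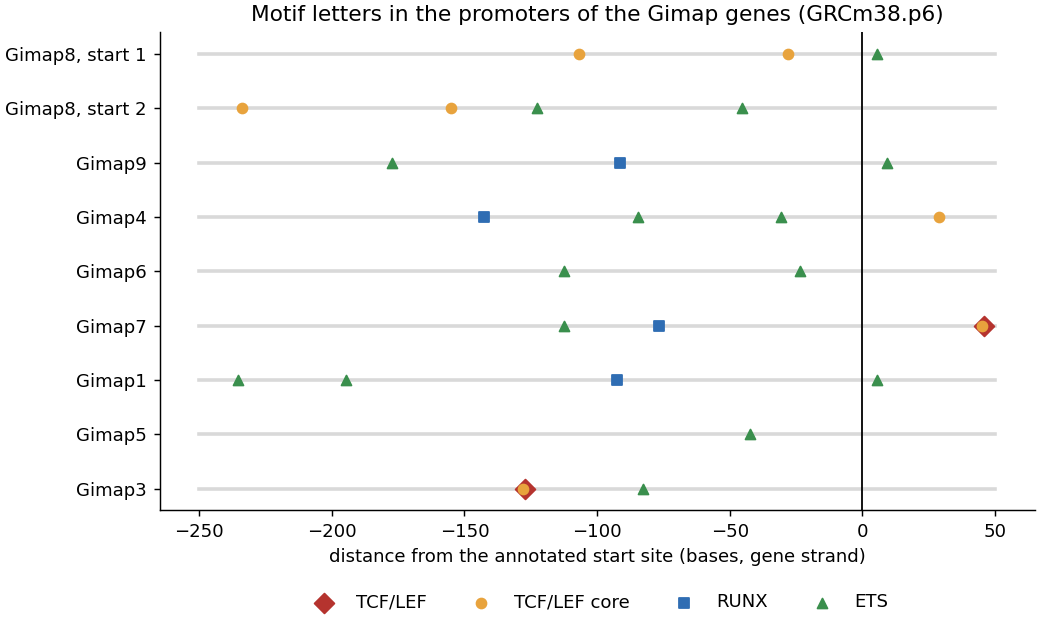
Positions of motif letters in the 9 promoters of the 8 Gimap genes, in gene order from the top. The x axis is the distance in bases from the annotated start site. Each grey line is 1 promoter from 250 bases before to 50 after the start, and each symbol is 1 match on either strand. The longer TCF/LEF form appears in Gimap7 and Gimap3 only, against 18.9% of all genes. An ETS match, with letters picked after the promoters had been seen, appears in every Gimap gene, against 49.8% of all genes.

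CpG dinucleotides in the Gimap promoters numbered 2 to 8, with a median of 4, against a median of 7 over all genes and a middle 50% of 3 to 20. The 300 bases held 2 in Gimap7 and Gimap3, 4 in Gimap4, Gimap6, Gimap1 and Gimap5, and 8 in Gimap9. The Gimap8 promoters held 3 and 2. Set against the number that their C and G content would give, the ratio ran from 0.104 in Gimap7 to 0.325 in Gimap9. All 8 genes were under the median of 0.390 over all genes, and 44.0% of all genes had a ratio no higher than that of Gimap9. Total G and C content was less uniform, from 43.3% in Gimap6 to 57.3% in Gimap9. Of the 8 genes, 6 were under the median of 52.8% over all genes, and Gimap9 and Gimap5 (55.7%) were above it.

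Tcf1 peaks filled a small stretch of the window and left most of it empty. The first peak began 88.5 kb into the window, so the first 55.3% of its length held none. All 5 peaks then followed within 27.7 kb, and the last 43.8 kb were empty again. In bins of 20 kb, the bin from 80 to 100 kb held 3 peaks, that from 100 to 120 kb held 2, and the other 6 bins held 0. An empty bin shows only that no listed peak lies there. The peaks covered 1893 bp in all, or 1.18% of the window and 6.83% of the stretch from the first to the last.

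The first peak, chr6:48668535-48668901 in mm9, was 367 bp wide with a score of 5.71. The score is the authors' own value for each peak, with a meaning that neither file nor labels state, so it is used only to compare peaks within this list. It was the lowest score of the 5, and 3.86% of all listed peaks scored lower. The second peak, chr6:48675545-48675800, was the narrowest at 256 bp and scored 9.61. The third, chr6:48677875-48678206, was 332 bp wide with a score of 8.75. The second and the third peak were the closest pair, with 2074 bp between their edges.

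The fourth peak, chr6:48682749-48683379, stood apart in width. It was 631 bp wide, and 64 peaks of the list (itself included) were as wide or wider. Its score of 11.86 was the highest of the window, with 60.8% of the list lower. The fifth peak, chr6:48695926-48696232, was 307 bp wide and scored 8.06. It was the most distant, 12546 bp beyond the edge of the fourth.

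**Figure D2:**
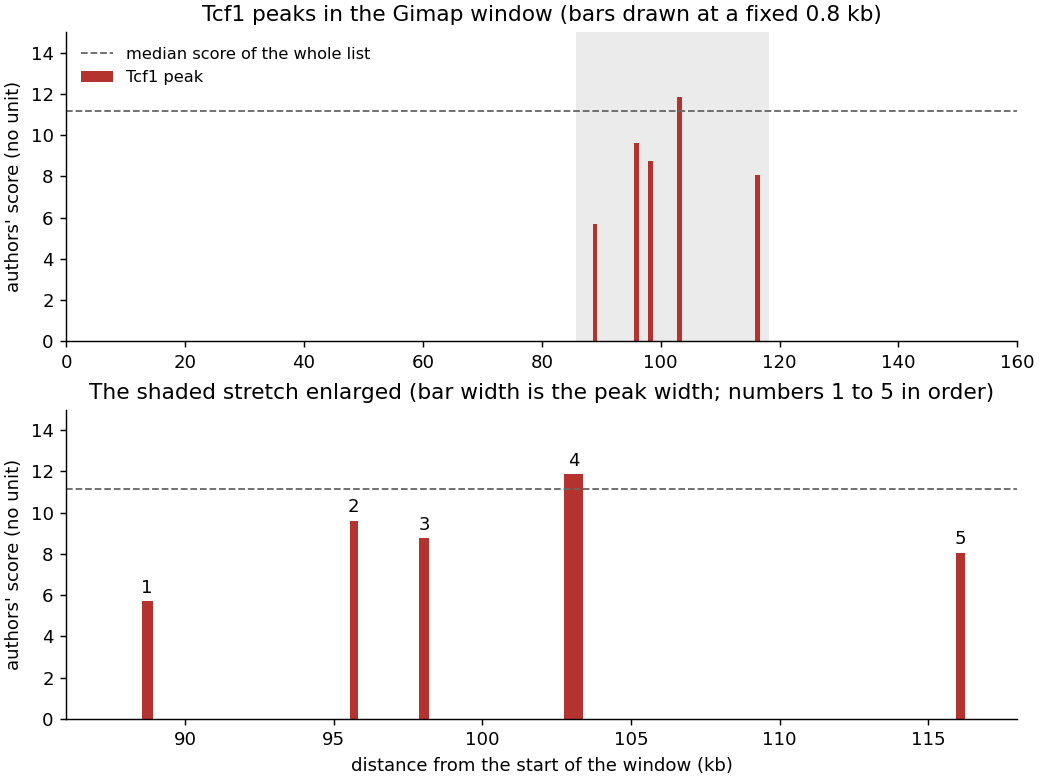
Tcf1 peaks along the Gimap window, with the distance from the start of the window (kb) on the x axis and the authors' score (no unit) on the y axis. Each bar is 1 peak, the dashed line is the median score of the whole list (11.17), and the lower panel enlarges the shaded stretch; peaks 1 to 4 crowd between 88.5 and 103 kb, and peak 4 alone rises over the line.

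Spacing was uneven. From midpoint to midpoint, the successive distances were 6954.5, 2368, 5023.5 and 13015 bp, with a median of 5989 bp, and the longest was 5.50 times the shortest. The first 4 peaks were each within 10 kb of the next, edge to edge, and formed a run of 14.8 kb, or 9.28% of the window. Thus 4 of the 5 peaks had a neighbour within 10 kb, against 16.3% of all listed peaks. Position chose these peaks, so nothing is read from that difference. With runs allowed gaps of up to 20 kb all 5 peaks joined, and with gaps of up to 5 kb the run shrank to 3, the second to the fourth.

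Listed peaks around the set of 5 were far away. The last listed peak before the window, chr6:48071095-48071368 (274 bp, score 6.68), ended 597 kb before the first Gimap peak. The next after the window, chr6:48847125-48847356 (232 bp, score 10.27), began 151 kb beyond the fifth. Both lie well outside the bounds, by 509 and 107 kb, so the number of 5 did not hang on where the window was drawn: widening or narrowing it by 20 kb on each side also gave 5. Within 1 Mb of its edges, the window itself left out, there were 4 peaks, or 2 per Mb, and within 5 Mb there were 7, or 0.70 per Mb. The window held 31.2 per Mb, and chromosome 6 up to its last peak 1.02 per Mb.

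No other place on chromosome 6 was as crowded. The chromosome carried 150 peaks, and the window, 0.109% of its length up to the last peak, held 3.33% of them. Of the 146 sets of 5 consecutive peaks on it, the Gimap set was the shortest, and the shortest set outside the window spanned 485 kb. Runs of 3 or more peaks within 10 kb numbered 1 on this chromosome, the Gimap run. Across the autosomes, 5 of 2591 such sets of 5, the Gimap set included, spanned no more than its 27.7 kb, and the median set spanned 2927 kb. Of 16408 tiles of 160 kb over all chromosomes, 16 (0.0975%) held 5 or more peaks, and the tile with the Gimap peaks was 1 of them. On chromosome 6, 1 tile held 4 peaks and 2 held 3, and 14 peaks outside the window had a neighbour within 10 kb. These counts place the window within the list and are no test of it, since it was chosen with the positions of the peaks known.

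Width and score were not used in choosing the window. The Gimap peaks were somewhat wider than the typical listed peak, at a median of 332 bp and a range of 256 to 631 bp, and 4 of the 5 were at or above the list's median of 276 bp. Autosomal peaks with a neighbour within 10 kb had the same median, 332 bp (middle 50% from 258 to 422.5 bp, n = 387), and those with no such neighbour 270.5 bp (n = 2280). The 387 include the first 4 Gimap peaks, and the 2280 include the fifth. The scores of the Gimap peaks pointed the other way. Their median was 8.75, with a range of 5.71 to 11.86, and 4 of the 5 lay below the list's median of 11.17, as did 1404 of the 2827 peaks (49.7%). Autosomal peaks with a close neighbour had a median score of 10.74 (middle 50% from 8.645 to 13.45). The second, the third and the fourth Gimap peak fell within that middle range, and the first and the fifth fell below it. The 30 peaks of the other autosomal runs of 4 or more, described below, had a median score of 9.37. Of these 30, 21 (70%) lay below the list's median score. Their median width was 385.5 bp, and 27 were at or above the list's median width. Wide peaks of lower score were thus shared with the other runs. Their 30 peaks include the 4 of chr2:98502342-98507577, with widths of 621 to 1358 bp and scores of 4.79 to 9.67. Peaks of 1 library are not replicates, so no test was made of these differences.

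**Figure D3:**
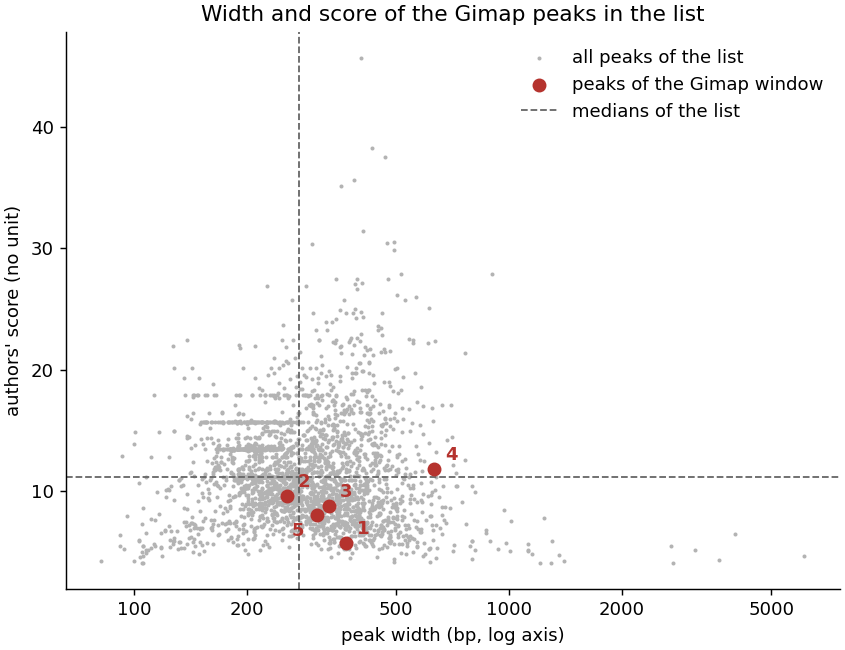
Width (bp, log axis) and authors' score (no unit) of every peak in the list (grey) and of the 5 Gimap peaks (red, numbered in order along the window). Dashed lines are the medians of the list, 276 bp and 11.17; peak 4 is the only Gimap peak above the median score, and peak 2 the only one narrower than the median width.

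The crowding was made of peaks of modest score. At a score of 8 or more 4 of the 5 Gimap peaks remained, beside 80.7% of the list. At 9 or more 2 remained (71.6% of the list), at 10 or more 1 (61.6%), and at 12 or more 0 (37.9%). Among the peaks at or above the list's median score the window held 1, the fourth, and no run. The 7 other autosomal runs of 4 or more peaks, described below, held 0 to 3 such peaks each, and 3 of them held none. Loss of the run at this score was thus not particular to the Gimap window.

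The Gimap run was set beside the 7 other autosomal runs of 4 or more peaks within 10 kb of each other, which held 30 peaks. Its span of 14.8 kb lay inside their range of 5.24 to 20.03 kb, with 4 of the 7 shorter. Its median score of 9.18 lay between 7.21 and 15.81, with 3 of the 7 lower. Its top score of 11.86 was also inside their range: 4 of the 7 runs had a higher one, up to 22.57 on chromosome 2. The other 3 had a lower one, down to 9.67, and no peak at or above the list's median score. Its median width of 349.5 bp was exceeded by 6 of the 7. Its closest neighbours were farther apart than in most of the other runs. The closest pair in the Gimap run was 2.37 kb apart from midpoint to midpoint, whereas in 6 of the 7 others it was closer, down to 0.462 kb. The exception was a run on chromosome 11 with 2.88 kb and a similar span of 16.0 kb, median score of 8.54 and widest peak of 635 bp. A single run, chr2:98502342-98507577, gave the shortest span, the lowest median and top scores and the largest median width, 838.5 bp. Its 4 peaks were 621 to 1358 bp wide. The list was not screened here for repeats or other mapping artefacts. With 1 run on the Gimap side, no test of the differences between runs was made.

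**Figure D4:**
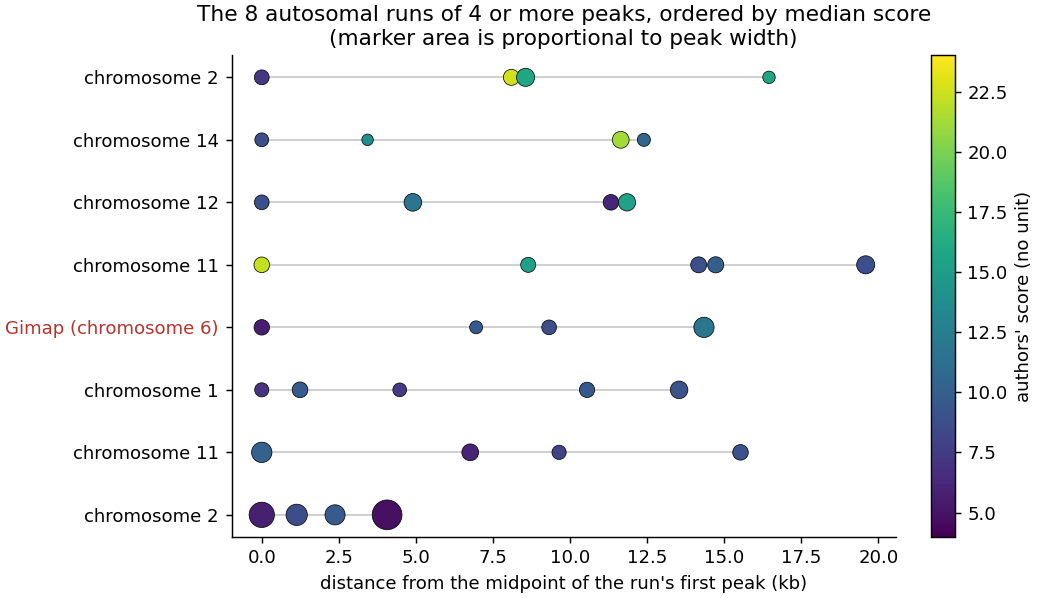
The 8 autosomal runs of 4 or more Tcf1 peaks, each a row labelled by its chromosome and ordered from the highest median score at the top. The x axis is the distance in kb from the midpoint of the run's first peak, each marker is 1 peak, its area is proportional to its width and its colour gives the authors' score; the Gimap run is the fifth from the top and has no pair of peaks closer than 2.37 kb.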

How the data were processed

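The authors deposited 1 list of Tcf1 peaks with a score per peak and no unit; per the file headers it is a bedGraph track of strong peaks. CASAVA 1.8, Bowtie 0.12.5, MACS 1.4.1 and the build mm9 are named, without settings, in the submitters' processing notes. The threshold, the use of the control library and the treatment of duplicate or multi-mapping reads are not given in the sources used here. Positions are counted from 1. Peaks, runs (gaps of at most 10 kb), tiles of 160 kb and motif letters were counted with Python 3.11.15, NumPy 2.4.6, pandas 2.3.3 and Matplotlib 3.10.9, and the counting was checked on simulated lists and sequences. The planned results were descriptions, and no test was run. Gene names, order and promoters came from RefSeq tables of GRCm38.p6, whose coordinates were not converted to mm9. All 5 peaks and all 8 genes are named. The window, the genes and the gene lists were chosen with earlier results of these data known.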

Additional observations from a re-analysis of the deposited data

How the results depend on the processing

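Of 26 alternatives to 9 results, 18 left the value within 1.5 times a count or a median within the middle 50% of the values behind it, and 8 moved it. Those 8 were a stricter score, the choice of motif letters and, for RUNX, the strand searched. Some of the 18 could not have moved the value. Widening or narrowing the window, counting any overlap and joining peaks within 1 kb all kept the same 5 peaks. Leaving out the widest or the lowest-scoring of 5 peaks always gives a median within the middle 50%. Among peaks at or above the median score of the list, the window held 1 peak in place of 5, the longest run was 1 in place of 4, and the medians were those of the single peak left, 631 bp and 11.86. The core CTTTG was found in 4 Gimap genes in place of 2 for the longer letters. The ETS letters with 1 more base were found in 4 and 3 genes in place of 8, and the RUNX letters on the gene's own strand in 0 in place of 4. The share of tiles with 5 or more peaks was 0.0652% on the autosomes alone and 0.0975% with shifted tiles or without intervals over 1000 bp. Without the widest peak the median width was 319.5 bp, and without the lowest score the median score was 9.18. The stricter score for the median score, the left-out peaks and the RUNX and ETS letters with their alternatives were chosen after seeing the data. With 1 peak at the stricter score, no spacing was left to measure. Motifs were not counted in the peaks, because that needs mm9 sequence. No paired analysis was possible because each serum has 1 library.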

Other observations

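The same letters were counted in the promoters of other gene lists, as a description. Over all genes of the table the shares were 18.9% for the TCF/LEF letters, 25.0% for RUNX and 49.8% for ETS. Of 15 genes of lymphocyte survival and apoptosis, 13 had a promoter in the table. The TCF/LEF letters stood in 3 of them (23.1%; Bcl2l1, Bcl2a1a and Bax), near the share over all genes. The ETS letters stood in 12 (92.3%): Bcl2, Bcl2l1, Mcl1, Bcl2a1a, Bcl2l11, Bak1, Bad, Bid, Bbc3, Il7r, Il2rg and Il4ra. RUNX letters stood in 4 (30.8%; Bcl2l11, Bak1, Il7r and Il2rg), also near the share over all genes. Of 12 interferon-induced GTPases of the Gbp and Irg families 8 had a promoter. Here the TCF/LEF letters stood in 4 (Gbp3, Irgm1, Igtp and Tgtp1), the RUNX letters in 1 (Gbp2) and the ETS letters in 0. Of 9 TCF/LEF family and T cell genes, 5 had a promoter, with TCF/LEF letters in 2 (Lef1 and Tcf7l2), RUNX letters in 1 (Cd8a) and ETS letters in 3 (Tcf7, Lef1 and Tcf7l2). Whether Tcf1 peaks lie at any of these genes was not analysed here.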
